A study of Mus musculus with 6 samples.

Results

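The proteasome is the barrel-shaped protease that degrades ubiquitin-tagged proteins, and the mRNA of its constitutive subunits and assembly factors was followed here in bone marrow–derived macrophages (BMDMs) with and without heme. Genes were chosen by symbol: every symbol that starts with Psma to Psmg and a digit, plus Pomp, without the inducible catalytic subunits Psmb8, Psmb9 and Psmb10. Of 25700 gene identifiers, 48 fit this rule. Psmc3ip fits only by its letters, since it encodes a cofactor of meiotic recombination, and is left out of all counts. The 47 other genes comprise 16 of the 20S core, 20 of the 19S regulatory particle, 6 of the activators and their inhibitor, and 5 of assembly factors. Psmb11, the thymus-specific catalytic subunit, had no count in any library, and the other 46 genes passed the filter on low counts.

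Bone marrow of C57BL/6J mice aged 8 to 10 weeks was cultured with M-CSF (100 ng/ml), which drives macrophage differentiation. On day 3, the 3 heme cultures received 300 μM heme-albumin and the 3 control cultures albumin alone, and RNA was taken on day 7. Each library came from macrophages of 1 mouse, and all groups are wild-type cells grown outside the animal. No label says whether equal replicate numbers mark 1 mouse split between treatments.

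The 20S core is a stack of α rings (Psma genes) around β rings (Psmb genes), and the β subunits Psmb6, Psmb7 and Psmb5 carry the caspase-like, trypsin-like and chymotrypsin-like active sites. The 19S particle caps the barrel: a ring of ATPases (Psmc genes) unfolds the substrate, and Psmd subunits bind and remove ubiquitin. In immune cells, interferon replaces the constitutive catalytic subunits by Psmb9, Psmb10 and Psmb8, and PA28αβ (Psme1, Psme2) takes the place of the 19S cap, which favors the making of peptides for MHC class I. NFE2L1 (also called NRF1), a relative of NRF2, is known to raise proteasome genes when degradation falls short.

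The libraries held 27201038 to 32994595 counts. Levels are given as CPM after TMM normalization, that is, counts divided by a library size adjusted for composition, and a gene was called at a Benjamini-Hochberg adjusted p under 0.05 in edgeR's quasi-likelihood test over 12433 genes. BMDM identity was checked with 7 macrophage markers, of which 1 rose and 5 fell and which summed to 31443 to 37292 CPM in control and 36138 to 39387 CPM in heme libraries. Most of this sum was Lyz2 (28007 CPM in controls and 32552 CPM with heme, not called), while Csf1r, Adgre1, Cd68, Fcgr1 and Mertk fell, with log2 fold changes of -0.61, -0.60, -0.42, -2.01 and -1.91. In the same comparison, 8 of the 9 tested neutrophil markers rose (12 listed) and Csf3r, the receptor of G-CSF, fell from 75.2 to 35.5 CPM (log2 fold change -1.08). The neutrophil sum went from 86.5 to 153 CPM in controls to 1376 to 1523 CPM with heme, most of it Mmp8 (1296 CPM ± 83.0; SD, n = 3), while Elane and Mpo, which define early granulocytes, reached 3.87 and 22.3 CPM from at most 0.0306 CPM, and Ly6g did not pass the filter. Camp and Retnlg did not pass it either. The paper that reported these data names Mmp8 among matrix remodeling genes that set heme-exposed macrophages in spheroids apart. The neutrophil sum is therefore no measure of neutrophils. Erythroid markers summed to at most 1.55 CPM, B and T lymphocyte markers to at most 1.99 CPM and stromal markers to at most 0.404 CPM in any library. Whether other cells had a part in the results below was not tested, and in bulk RNA fewer cells of a type and less RNA per cell cannot be told apart.

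Heme-treated BMDMs carried more mRNA of most proteasome genes. Of the 46 tested genes, 37 rose, 3 fell and 6 missed the threshold, while 31.7% of all tested genes rose and 30.8% fell (62.5% in either direction). The median log2 fold change (heme over control) was 0.58, against 0.00406 for all tested genes, and the changes ran from -1.10 for Psme2b to 1.54 for Psmd5. Summed over the 47 genes, the level went from 3555 CPM ± 95.6 in controls to 5142 CPM ± 129 with heme (SD, n = 3), or from 0.384% ± 0.0156 to 0.476% ± 0.0115 of all counts as deposited. A log2 fold change above 0.5 was found for 27 of the 37 genes that rose, and one above 1 for 5. Among all tested genes, 20.2% rose by more than 0.5 and 11.1% by more than 1, so the mRNA of proteasome genes rose broadly and by moderate steps. Among the genes with large changes in either direction, the annotation (GRCm38) places Psmd5 (ENSMUSG00000026869) at chr2:34849734-34874968 on the minus strand, Psmd11 (ENSMUSG00000017428) at chr11:80428615-80473248 on the plus strand, Psma5 (ENSMUSG00000068749) at chr3:108256926-108279974 on the plus strand, Psmb5 (ENSMUSG00000022193) at chr14:54614119-54618022 on the minus strand, Psme2b (ENSMUSG00000078153) at chr11:48945354-48946190 on the minus strand and Psme1 (ENSMUSG00000022216) at chr14:55578123-55581529 on the plus strand.

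**Figure D1:**
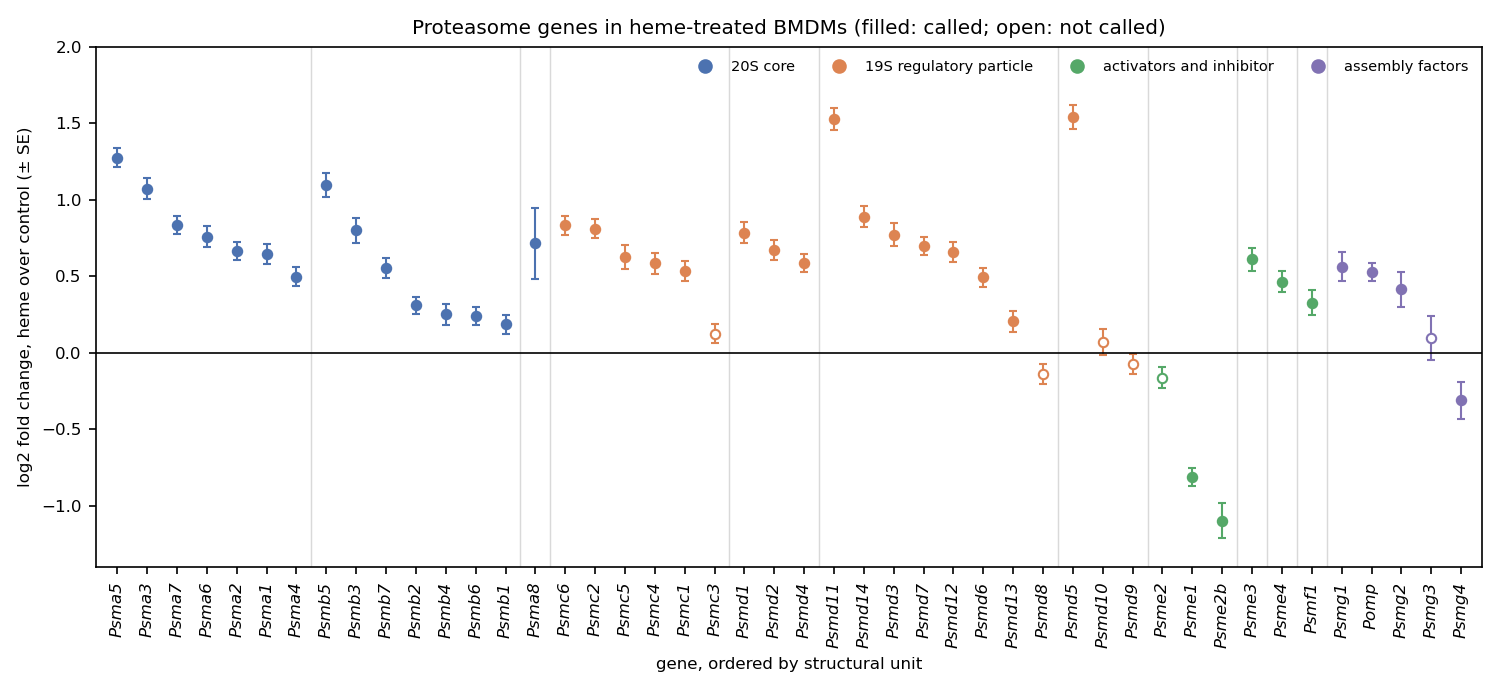
Log2 fold change (heme over control, vertical axis) of the 46 tested proteasome genes, ordered by structural unit; points are edgeR's estimates, bars standard errors, filled points called genes and open points genes that did not pass the test. The α ring lies between 0.50 and 1.28, Psmd5 and Psmd11 stand highest, and Psme1 and Psme2b lie lowest.

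The libraries did not overlap for most of these genes: all 3 heme libraries lay above all 3 control libraries in 38 of the 46, where 34.8% of all tested genes did so, and below them in 6, against 34.0%. Psmd10 and Psmg3 were the 2 genes whose groups overlapped. How the libraries are scaled bears on the small changes. Under plain library-size scaling, the median over all tested genes moved by -0.22, 20.7% of them rose and 46.8% fell, and among the proteasome genes 29 rose, 6 fell and 11 were not called (median 0.35).

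**Figure D2:**
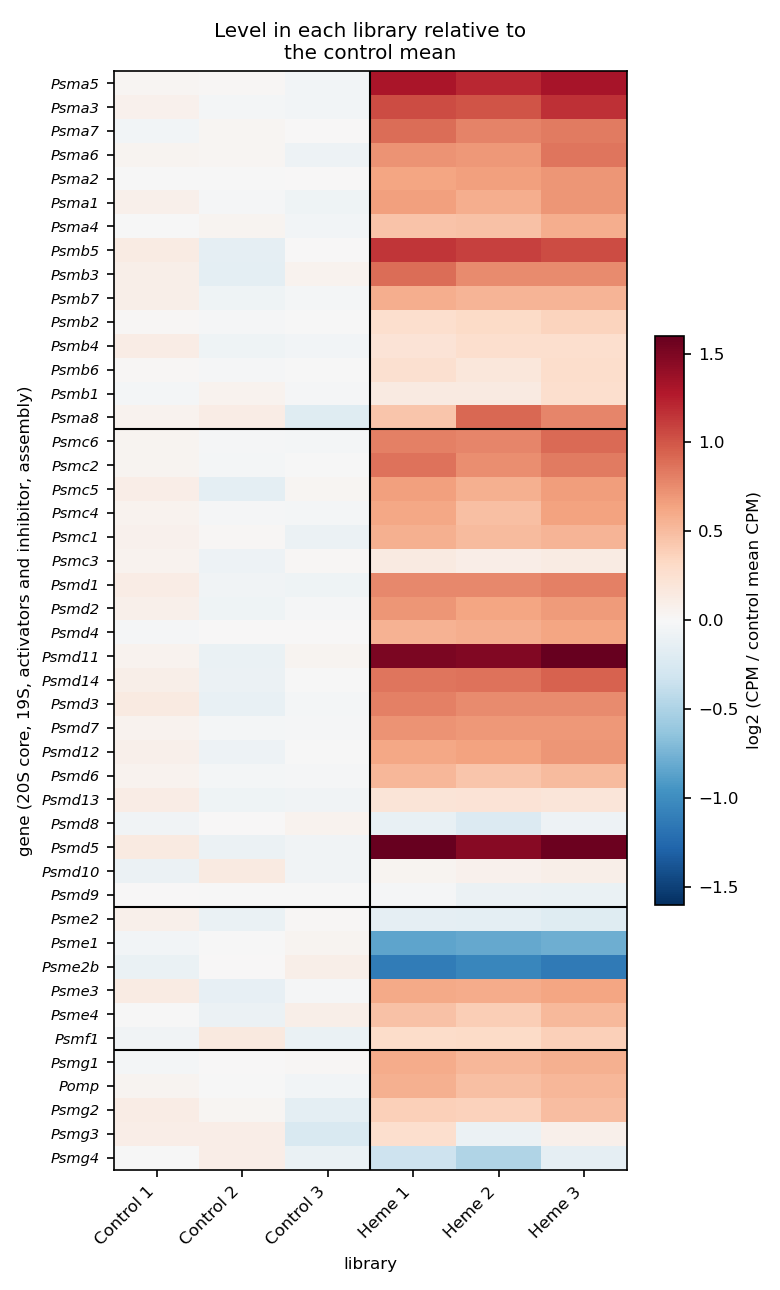
Level of each of the 46 tested genes (rows) in each library (columns), as log2 of CPM over the control mean; red is higher and blue lower than the control mean, and black lines separate controls from heme and the 4 classes. The 3 heme columns look alike, red through most of the 20S and 19S rows and blue for Psme1 and Psme2b.

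All 15 tested genes of the 20S core rose, with a median log2 fold change of 0.67, and for each the groups did not overlap. In the α ring, which forms the gate of the barrel, all 7 genes rose, also under plain library-size scaling. Psma5 showed the largest change of the ring, from 51.6, 51.2 and 49.0 CPM in control replicates 1 to 3 to 125, 116 and 126 CPM in heme replicates 1 to 3 (log2 fold change 1.28, standard error 0.06, adjusted p = 1.95e-07 by edgeR). Psma3 went from 68.3, 64.1 and 63.6 CPM to 135, 131 and 147 CPM (1.07, standard error 0.07). For both genes every heme library lay far above every control library. At the other end of the ring, Psma1 went from 92.9, 86.4 and 83.8 CPM to 138, 131 and 143 CPM (0.65, standard error 0.07), and Psma4 from 73.1, 76.0 and 71.6 CPM to 101, 101 and 109.9 CPM (0.50, standard error 0.06). The gene with the smallest change of the ring still had its lowest heme library well above its highest control library. Between these ends lay Psma7 (0.84), Psma6 (0.76) and Psma2 (0.67).

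Psma5 and Psmb5 share sequence with other genes. Of the 50-base runs in their annotated transcripts, 49.1% and 54.1% also occur in transcripts of other genes, most often of Gm8394 and Gm3375, and how the counting treated such reads is not given. For the other subunits of the α and β rings this share was at most 17.8%. Exons of Psma4 overlap AY074887 by 114 bases on the other strand.

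In the β ring, all 7 genes rose as well, but by less for several: the median was 0.31. Psmb5, the chymotrypsin-like subunit, stood at 57.1, 47.4 and 52.5 CPM in the control libraries and at 116, 112 and 108 CPM in the heme libraries (log2 fold change 1.10, standard error 0.08, adjusted p = 2.1e-06 by edgeR). Psmb7, the trypsin-like subunit, went from 64.4, 57.8 and 59.3 CPM to 90.3, 88.1 and 88.3 CPM (0.56, standard error 0.06), and 405 of its annotated bases overlap Nek6 on the other strand. Psmb6, the caspase-like subunit, went from 140.2, 137 and 139 CPM to 166, 158 and 168 CPM (0.24, standard error 0.06, adjusted p = 0.00477 by edgeR). The mRNA of the 3 catalytic subunits thus changed by unequal amounts, and the active sites themselves were not measured. The ratio of Psmb5 to Psmb6, as counts per kilobase, rose from 0.786 ± 0.0642 to 1.42 ± 0.0743 (SD, n = 3), a step that no scaling of the libraries can alter. The groups of this ratio did not overlap (p = 0.1 by exact two-sided permutation, the lowest value that 3 libraries against 3 can reach; the ratio was chosen after the values were seen).

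Among the noncatalytic β subunits, Psmb3 moved most and Psmb1 least. Psmb3 went from 48.2, 40.5 and 47.1 CPM to 84.3, 76.4 and 76.2 CPM (log2 fold change 0.80, standard error 0.08). Psmb1 went from 100.2, 106 and 102 CPM to 113, 113 and 124 CPM (0.19, standard error 0.06, adjusted p = 0.0291 by edgeR), and it did not pass the test with the replicate number as a block (adjusted p = 0.0694), with upper-quartile scaling (0.0679), with no filter on low counts (0.0567) or without control replicate 1, control replicate 3 or heme replicate 3 (0.0591, 0.0853 and 0.138). Psmb2 and Psmb4 had log2 fold changes of 0.31 and 0.25. Under plain library-size scaling, Psmb1 (-0.03), Psmb2 (0.09), Psmb4 (0.03) and Psmb6 (0.02) no longer passed the test, so that 3 of the 7 genes of the ring rose.

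The germ cell α subunit Psma8 was near the limit of measurement, at 0.801, 0.835 and 0.673 CPM in controls and 1.04, 1.46 and 1.32 CPM with heme. It was called (log2 fold change 0.72, standard error 0.23, adjusted p = 0.0222 by edgeR), but not by DESeq2 (adjusted p = 0.0638), with library sizes alone (0.0862), or when control replicate 3 (0.0720), heme replicate 2 (0.0789) or heme replicate 3 (0.0694) was left out. The exchangeable catalytic subunits moved the opposite way: Psmb8, Psmb9 and Psmb10 had log2 fold changes of -0.86, -1.90 and -0.90. Per kilobase, Psmb8 fell from 0.474 ± 0.0247 to 0.122 ± 0.00225 of the level of Psmb5, its counterpart at the same active site. Psmb9 went from 0.0947 ± 0.00449 to 0.0215 ± 0.00309 of Psmb6, and Psmb10 from 1.65 ± 0.219 to 0.598 ± 0.0238 of Psmb7 (SD, n = 3; p = 0.1 by exact two-sided permutation for each of the 3 ratios, the lowest value possible, and adjusted p = 0.1 over them). Per kilobase, Psmb10 stood above Psmb7 in controls and below it with heme, but this order rests on the division by length: as CPM, Psmb10 was below Psmb7 in both groups (ratio 0.824 in controls and 0.298 with heme).

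**Figure D3:**
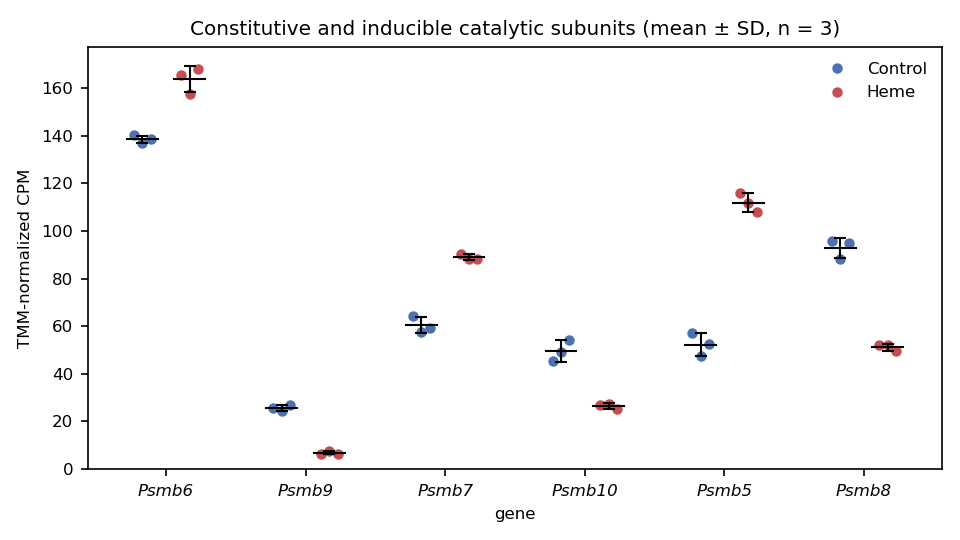
TMM-normalized CPM (vertical axis, from 0) of the catalytic subunits in each library, with each constitutive gene beside its inducible counterpart; points are libraries, and black lines and bars are mean ± SD (n = 3). Psmb6, Psmb7 and Psmb5 are higher and Psmb9, Psmb10 and Psmb8 lower in every heme library.

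Since NRF2 and NFE2L1 bind the antioxidant response element, its core, TGACNNNGC, was searched on both strands in RefSeq promoter windows (GRCm38.p6, 250 bases before to 50 after the start) of the 39 proteasome genes that had one. It was found in 6 of the 39 (15.4%), in 17.2% of all tested genes with a window and in 14% of all genes in the table. Psmb5 and Psmb6 are shown as catalytic genes that both hold it and that differ in their change, and Psmc6 as an ATPase gene with a match far from the start. Capitals mark the match, and each run is 5′ to 3′ on the strand of the gene.
Psmb5, chr14:54618004-54618072, minus strand, match from -47: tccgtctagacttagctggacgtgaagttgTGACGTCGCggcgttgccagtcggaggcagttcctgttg
Psmb6, chr11:70525318-70525356, plus strand, match from -9: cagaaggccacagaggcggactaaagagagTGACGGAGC
Psmc6, chr14:45329574-45329635, plus strand, match on the other strand from -227: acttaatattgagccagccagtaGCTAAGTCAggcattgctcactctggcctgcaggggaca
The 3 others were Psmd12, Psme4 and Psmd9, which had log2 fold changes of 0.66, 0.46 and -0.07. Of the 5 genes with a change above 1, only Psmb5 had a match in its window, and Psma3, Psma5, Psmd5 and Psmd11 had none. None of the 6 matches overlapped the related AP-1 motif TGANTCA, which 2 of the 39 windows held.

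Of the 20 genes of the 19S regulatory particle, 16 rose, 0 fell and 4 were not called, with a median log2 fold change of 0.64. In the ATPase ring, 5 of 6 genes rose. Psmc6 went from 59.7, 56.8 and 56.7 CPM to 101, 99.3 and 108 CPM (log2 fold change 0.83, standard error 0.06), and Psmc2 from 77.7, 73.9 and 75.0 CPM to 137, 126 and 134 CPM (0.81, standard error 0.06). These were the largest changes of the ring. Psmc5 stood at 57.8, 48.1 and 54.9 CPM in controls and at 84.5, 79.3 and 85.0 CPM with heme (0.63, standard error 0.08). Psmc4 went from 78.2, 74.1 and 73.6 CPM to 116, 105 and 118 CPM (0.59, standard error 0.07). Psmc1, the most abundant ATPase gene per kilobase, went from 122, 118 and 109.9 CPM to 173, 165 and 170.1 CPM (0.54, standard error 0.06). In these 5 genes no control library reached a heme library. Psmc3 was the exception, with 123, 112 and 119.7 CPM in controls and 130.2, 127 and 129 CPM with heme: the groups did not overlap, but the gene did not pass the test (0.13, standard error 0.06, adjusted p = 0.0934 by edgeR), and under plain library-size scaling its direction turned (-0.10).

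The non-ATPase subunits of the base, Psmd1 and Psmd2, which form the scaffold of the particle, and the ubiquitin receptor gene Psmd4, rose by 0.79, 0.67 and 0.59 on the log2 scale. The lid, which holds the deubiquitinase, had 7 of 8 Psmd genes that rose. The lid gene Sem1, which the symbol rule does not reach, is given below. Psmd11, the gene of the lid subunit RPN6, which links the lid to the 20S core, went from 75.3, 66.8 and 74.5 CPM to 206, 203 and 217 CPM (log2 fold change 1.53, standard error 0.07, adjusted p = 1.21e-07 by edgeR). Psmd14, the deubiquitinase gene itself, went from 69.0, 60.4 and 64.0 CPM to 117, 118 and 124 CPM (0.89, standard error 0.07). Psmd3 (0.77), Psmd7 (0.70), Psmd12 (0.66) and Psmd6 (0.49) followed. Psmd13 had a log2 fold change of 0.21 (adjusted p = 0.024 by edgeR), and it lost its call without control replicate 2, control replicate 3 or any of the 3 heme libraries (adjusted p up to 0.0936), and it was furthest from a call when scaled by library size alone (-0.014, adjusted p = 0.878). Psmc3 and Psmd13 overlap exons of Slc39a13 and Sirt3 on the other strand, and Psmd1 overlaps Gm21972 by 301 bases on the same strand. How reads there were counted is not given.

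Psmd8, the last Psmd gene of the lid, did not follow the others. Among the Psmd genes of the lid it was by far the most abundant per kilobase in controls (134 CPM per kilobase, against 11.3 for Psmd11). It stood at 392, 408 and 425 CPM in control and 376, 351 and 387 CPM in heme libraries. The heme libraries were the lower ones without overlap, but the gene did not pass the test (log2 fold change -0.14, standard error 0.07, adjusted p = 0.101 by edgeR). It was called lower under plain library-size scaling (-0.36) and without control replicate 1 (adjusted p = 0.0474). The ratio of Psmd11 to Psmd8 per kilobase went from 0.0848 ± 0.00687 to 0.269 ± 0.0068 (SD, n = 3; p = 0.1 by exact two-sided permutation, the lowest value possible; chosen after the values were seen). Over the 8 Psmd genes of the lid, the SD of log2 level per kilobase was 1.07 in controls and 0.763 with heme, and over the 6 ATPase genes 0.809 and 0.649, whereas it was 0.544 and 0.590 in the α ring and 0.874 and 0.910 in the β ring.

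Psmd5, Psmd9 and Psmd10 share the Psmd name but encode chaperones that help to assemble the ATPase ring and leave the finished particle. Psmd5 had the largest change of all proteasome genes, from 37.1, 31.5 and 32.5 CPM to 102, 92.4 and 100.1 CPM (log2 fold change 1.54, standard error 0.08, adjusted p = 2.73e-07 by edgeR). Psmd9, in contrast, stood at 26.6, 26.4 and 26.5 CPM in controls and at 26.2, 24.8 and 24.5 CPM with heme (-0.07, standard error 0.07, adjusted p = 0.358 by edgeR). Psmd10 had 18.6, 21.9 and 19.2 CPM against 20.6, 21.0 and 21.3 CPM (0.07, standard error 0.08). Of these chaperones, only Psmd5 rose. The ratio of Psmd5 to Psmd9 per kilobase went from 1.27 ± 0.109 to 3.91 ± 0.179 (SD, n = 3), without overlap of the groups (p = 0.1 by exact two-sided permutation, the lowest value possible; chosen after the values were seen).

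**Figure D4:**
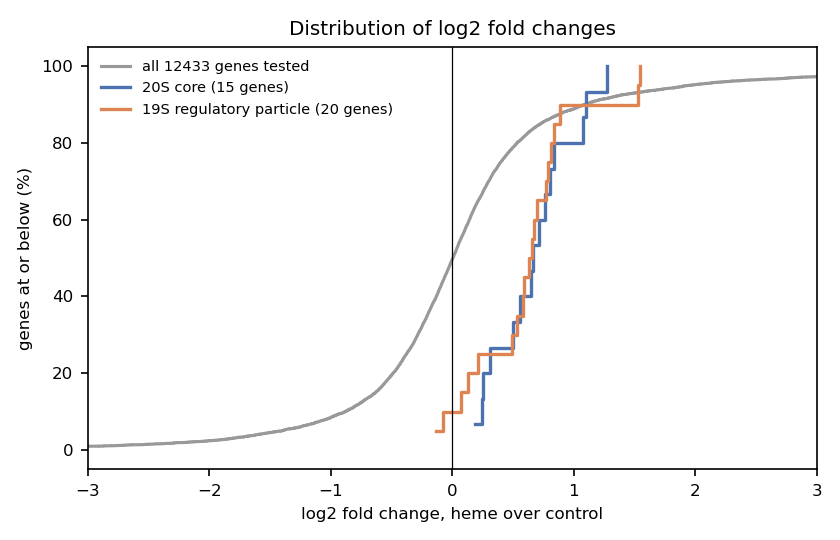
Share of genes (vertical axis, in percent) at or below each log2 fold change (horizontal axis, which leaves out the most extreme changes), for all 12433 genes tested, the 15 tested genes of the 20S core and the 20 genes of the 19S particle. The 20S and 19S curves lie to the right of the curve of all genes around 0 and 0.5, and their medians are 0.67 and 0.64.

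The activators went both ways. The α subunit mRNA of PA28αβ, the interferon-inducible cap, fell: Psme1 stood at 99.9, 103 and 106 CPM in control and at 57.5, 58.6 and 60.0 CPM in heme libraries (log2 fold change -0.81, standard error 0.06, adjusted p = 2.52e-06 by edgeR). Psme2, the β subunit gene, had 93.5, 82.0 and 89.1 CPM in controls and 79.9, 79.3 and 77.4 CPM with heme, without overlap. It did not pass the test (-0.16, standard error 0.07, adjusted p = 0.0586 by edgeR), but it did with upper-quartile scaling (adjusted p = 0.0301), library sizes alone (adjusted p = 0.000987) or without control replicate 2 (adjusted p = 0.0127). Psme2b, a gene that resembles Psme2 and shares 69.3% of its 50-base runs with other genes, Psme2 foremost, fell from 8.48, 9.16 and 9.75 CPM to 4.21, 4.42 and 4.18 CPM (-1.10, standard error 0.11); reads of the pair may be split between them. The mRNA levels of the PA28αβ subunits thus changed unequally, and the ratio of Psme1 to Psme2 per kilobase went from 0.937 ± 0.0767 to 0.595 ± 0.0225 (SD, n = 3).

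The genes of the other caps rose. Psme3, the gene of the nuclear activator PA28γ, went from 87.9, 73.7 and 79.7 CPM to 122, 122 and 125 CPM (log2 fold change 0.61, standard error 0.07). Psme4, the gene of PA200, a cap linked to histone degradation, went from 102, 95.2 and 108 CPM to 141, 134 and 146 CPM (0.46, standard error 0.07). Psmf1, which encodes the 20S-binding inhibitor PI31, went from 25.0, 29.0 and 24.2 CPM to 32.0, 32.3 and 33.9 CPM (0.33, standard error 0.08), and under plain library-size scaling it missed the threshold (0.11). Psme3 stood below Psme1 per kilobase in every control library and above it in every heme library: the ratio was 0.585 ± 0.0651 and 1.57 ± 0.021 (SD, n = 3). For this ratio and that of Psme1 to Psme2, both chosen after the values were seen, the exact two-sided permutation test gave p = 0.1, the smallest possible.

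**Figure D5:**
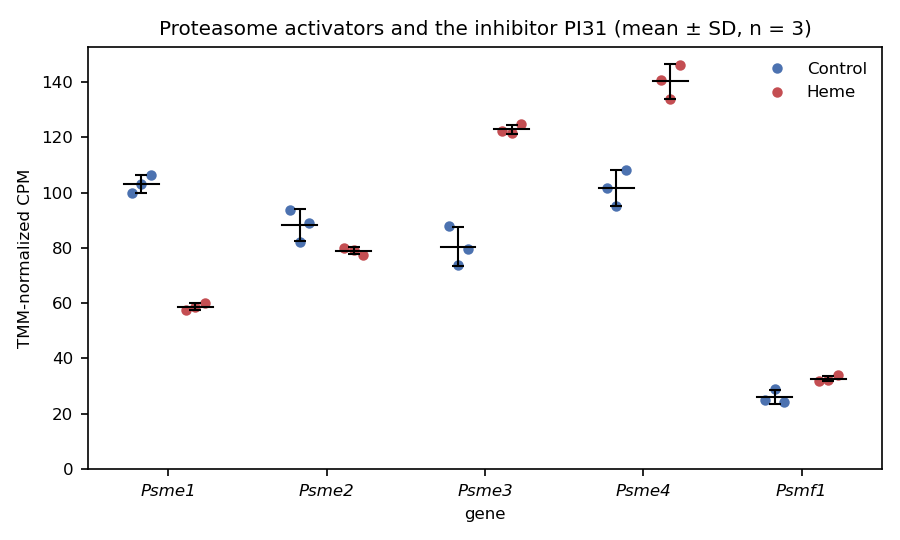
TMM-normalized CPM (vertical axis, from 0) of the activator genes other than Psme2b and of Psmf1 in each library; points are libraries, and black lines and bars are mean ± SD (n = 3). Psme1 drops from a mean of 103 to 58.7 CPM, while Psme3, Psme4 and Psmf1 are higher in every heme library.

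Among the assembly factors, which help α and β rings to form, 3 rose, 1 fell and 1 was not called. Pomp, whose product guides the maturation of the 20S core and is then degraded, went from 86.2, 83.0 and 81.2 CPM to 124, 116 and 121 CPM (log2 fold change 0.53, standard error 0.06, adjusted p = 4.65e-05 by edgeR). Psmg1 and Psmg2 encode partners in a chaperone of the α ring. Psmg1 went from 7.29, 7.49 and 7.58 CPM to 11.2, 10.8 and 11.04 CPM (0.56, standard error 0.09), and Psmg2 from 7.60, 7.16 and 6.27 CPM to 9.13, 9.05 and 9.90 CPM (0.42, standard error 0.11), which was not called when scaled by library size alone (0.19). The partners in the second such chaperone did not rise. Psmg3 had 7.38, 7.40 and 5.78 CPM in controls and 8.28, 6.399 and 7.26 CPM with heme (0.10, standard error 0.14, adjusted p = 0.581 by edgeR), and Psmg4 had 9.20, 9.91 and 8.59 CPM against 7.34, 6.64 and 8.36 CPM. Psmg3 overlaps Gm26938 by 280 bases on the same strand, and how reads there were counted is not given. The call of Psmg4 (-0.31, standard error 0.12, adjusted p = 0.0465 by edgeR) was lost with DESeq2 (adjusted p = 0.0536), with the replicate number as a block (adjusted p = 0.0944), with a minimum count of 50 (adjusted p = 0.0505) and without any of the libraries except heme replicate 3 (adjusted p up to 0.153). Psmc3ip, the gene set aside, overlapped between the groups (0.13, standard error 0.13).

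Genes around the proteasome that the symbol rule does not reach were taken from 5 lists. Their counts stand beside 31.7% of all tested genes that rose and 30.8% that fell. Of the remaining subunits, the ubiquitin receptor gene Adrm1 rose from 62.7, 54.1 and 59.3 CPM to 108, 104 and 101 CPM (log2 fold change 0.83), while Sem1, a small lid subunit that also serves other complexes, fell from 107, 122 and 115 CPM to 97.3, 95.3 and 97.6 CPM (-0.25, adjusted p = 0.00925 by edgeR). Of 8 tested proteasome-associated genes (9 listed), 7 rose and none fell. They include the scaffold gene Ecpas (1.27), Zfand5 (1.14), whose product stimulates the proteasome, the thioredoxin-like gene Txnl1 (1.01), Akirin2 (0.96), which is needed for import of proteasomes into the nucleus, and the deubiquitinase gene Usp14 (0.73). The other deubiquitinase gene, Uchl5, did not pass the test (0.10, adjusted p = 0.346 by edgeR). Among the 7, the ubiquitin ligase gene Ube3c (0.23) lost its call when scaled by library size alone (0.0042, adjusted p = 0.964) and without control replicate 2, control replicate 3 or heme replicate 3 (adjusted p up to 0.0775).

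Shuttle receptors, which carry tagged proteins to the proteasome, had 3 of the 4 genes reported here that rose, with Rad23b at 1.19 (from 148 CPM ± 12.1 to 337 CPM ± 1.80; SD, n = 3). Of these, Ubqln4 (0.40) was not called when scaled by library size alone (0.18, adjusted p = 0.0819). Of the 6 genes on the route of NFE2L1, 4 rose and 1 fell, where 31.7% of all tested genes rose and 30.8% fell. Nfe2l1 itself went from 241, 197 and 222 CPM to 301, 309.6 and 282 CPM (log2 fold change 0.44, standard error 0.08, adjusted p = 0.00127 by edgeR) but missed the threshold under plain library-size scaling (0.21, adjusted p = 0.0531). Vcp (0.82), Ufd1 (0.62) and Nploc4 (0.55), the genes of the segregase that draws proteins out of the ER membrane, rose together. Ddi2, the protease that cuts NFE2L1 into its active form, fell (-0.28, adjusted p = 0.00275 by edgeR), and Ngly1, the deglycosylase of the same route, had a log2 fold change of -0.22 (adjusted p = 0.0816 by edgeR). Ngly1 was called lower when scaled by library size alone (-0.44, adjusted p = 0.00286 by edgeR). Of the 3 genes of ubiquitin supply reported here, the polyubiquitin gene Ubb (0.68) and Uba1, the ubiquitin-activating enzyme gene (0.59), rose. Rps27a, which encodes ubiquitin fused to a ribosomal protein, had a log2 fold change of -0.02 and did not pass the test. When scaled by library size alone, Rps27a was called lower (-0.24, adjusted p = 0.0231 by edgeR).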

How the data were processed

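RNA of 3 control and 3 heme-treated BMDM cultures was measured by bulk RNA-Seq from stranded TruSeq libraries. The values the authors deposited are raw read counts, whole numbers for every Ensembl gene identifier; the submitters' processing notes name STAR 2.7.0, featureCounts and GRCm38.p5, while for strand, multimapping reads and annotation release the settings were not given in the sources used here. Depth was 27201038 to 32994595 counts per library; a count of 0 allows at most 0.119 CPM (3 counts in the shallowest library, counting error only). Symbols, union-exon lengths and overlaps came from GENCODE M21 (25664 of 25700 identifiers matched), promoter windows from RefSeq (GRCm38.p6).

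In R 4.3.3, edgeR 4.0.16 kept 12433 genes (filterByExpr, minimum count 10), scaled libraries by TMM and compared heme with control (glmQLFit, glmQLFTest; group as the only term; Benjamini-Hochberg over all genes tested). Alternatives were other scalings, DESeq2 1.42.0, limma-voom (limma 3.58.1), other filters on low counts, the replicate number as a block and leaving out each library. The fit was tested on simulated counts with 200 changed genes. It called 45 of 50 genes with a true log2 fold change of 1 and 47 of 50 with -1. At 0.5 it called 26 of 49 and at -0.5 also 26 of 49, so such changes were missed in part in the simulation. Far more genes were called in the real data, so the simulation does not test the scaling. For the same reason the Benjamini-Hochberg cutoff was stricter in the simulation, and its share of missed changes need not hold for the real data. Replicates were separate libraries with different counts (chi-square per degree of freedom at least 6.19), each from 1 mouse. The genes and lists were chosen with earlier results of these data known, and no list was tested as a set. Some listed genes are not reported here and were left out of the list counts. Values of every library are given for the catalytic subunits Psmb5, Psmb6 and Psmb7, all ATPases, Psmd14, all activators and assembly factors, and the 2 highest and 2 lowest changes among Psma, Psmb and Psmd genes; for the other genes of the rule and the lists, changes or selected levels are given.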

Additional observations from a re-analysis of the deposited data

How the results depend on the processing

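Scaling decides most of what can change. With library sizes alone, 2579 of all tested genes rose and 5815 fell (3938 and 3831 with TMM), 6 proteasome genes fell in place of 3, and 2 genes of the 19S particle fell in place of 0 (Psmd8 and Psmd9). Under the same scaling the direction turned for Psmb1 (-0.035), Psmc3 (-0.096), Psmc3ip (-0.092), Psmd10 (-0.15), Psmd13 (-0.014), Psmg3 (-0.13), Uchl5 (-0.12) and Ubqln2 (-0.087). The count of assembly genes that fell was 1, and 0 with DESeq2, a minimum count of 50 and the replicate block. Leaving out each library gave 0 to 1 for that count and 0 to 1 for the 19S genes that fell, and it turned the sign of Psmg3 (-0.014 to 0.18) and Rps27a (-0.083 to 0.059), neither of which was called. With library sizes alone, 29 proteasome genes rose in place of 37, 10 of the 20S core in place of 15, and 15 of the 19S particle in place of 16. In each other run these counts were at least 34, 13 and 15. The replicate numbers are not said to mark a shared mouse. Deviations from the group mean had correlations of -0.0998, -0.142 and -0.0683 between same-numbered libraries. Between differently numbered libraries they ran from -0.021 to 0.109. Deviations from a mean of 3 libraries depend on each other, so these values do not settle whether cultures were paired. With the replicate number as a block, 36 proteasome genes rose and 2 fell: Psmb1 and Psmg4 lost their call, and no other named gene changed its call. The ratios of inducible to constitutive subunits kept their direction with each library left out. Division by gene length multiplies a ratio by the same factor in every library, so it cannot alter that direction and is no check of it.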
